A study of Mus musculus with 2 samples.

Results

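The 10 genes that equip the myoepithelial cell for contraction were followed in epithelial cells of the mammary gland, taken from mice lacking Cuzd1 and from littermates heterozygous for it. The genes are Acta2, Actg2, Myh11, Tagln, Cnn1, Mylk, Myl9, Tpm2, Oxtr and Trp63, and their members on the array are the 22 probe sets whose single gene symbol is one of these names, out of 18193 genes with a probe set. Both groups carried a Cuzd1 allele disrupted by homologous recombination in embryonic stem cells, on a background made mostly C57BL/6 by repeated backcrossing. The heterozygous group kept 1 intact copy, so no wild-type gland is in the comparison. Glands were taken on day 18 of pregnancy, dispersed with hyaluronidase and collagenase and washed, with no sort recorded. Total RNA of 5 mice of each genotype was pooled on 1 array, so there are 2 arrays, no replicate and no test, and every difference is one between these pools.

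Myoepithelial cells form the basal layer of the mammary epithelium and wrap the alveoli and ducts. Oxytocin released at suckling binds its receptor on them, calcium rises, myosin light chain kinase phosphorylates the regulatory light chain of smooth muscle myosin, and the sliding of myosin on smooth muscle actin squeezes milk into the ducts. Vascular smooth muscle cells and pericytes use most of the same genes, while Trp63 (p63), a transcription factor of the basal lineage, marks the epithelial cell. Many smooth muscle genes are controlled by serum response factor (SRF) with myocardin-family cofactors through a DNA element named the CArG box.

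The RefSeq promoter table (GRCm38.p6) held 6 of the 10 genes, namely Acta2, Cnn1, Mylk, Myl9, Tpm2 and Oxtr, each from 250 bases before to 50 bases after the start. The promoters of Acta2, the smooth muscle actin of the group, and Myl9, its regulatory light chain, are shown because they were the ones in which a CArG box or a near match was found. The search took CC, then 6 letters, then GG, a pattern that reads the same on both strands, with at most 1 of the 6 letters other than A or T. No other motif was searched. Capitals mark the matches. The Acta2 promoter lies at chr19:34255324-34255623 on the minus strand and the Myl9 promoter at chr2:156775214-156775513 on the plus strand, both printed 5′ to 3′.
Acta2: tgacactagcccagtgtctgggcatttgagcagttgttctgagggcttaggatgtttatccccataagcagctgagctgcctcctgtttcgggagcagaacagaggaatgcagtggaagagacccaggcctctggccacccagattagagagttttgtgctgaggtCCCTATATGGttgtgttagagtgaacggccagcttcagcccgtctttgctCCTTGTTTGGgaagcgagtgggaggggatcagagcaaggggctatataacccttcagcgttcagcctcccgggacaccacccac
Myl9: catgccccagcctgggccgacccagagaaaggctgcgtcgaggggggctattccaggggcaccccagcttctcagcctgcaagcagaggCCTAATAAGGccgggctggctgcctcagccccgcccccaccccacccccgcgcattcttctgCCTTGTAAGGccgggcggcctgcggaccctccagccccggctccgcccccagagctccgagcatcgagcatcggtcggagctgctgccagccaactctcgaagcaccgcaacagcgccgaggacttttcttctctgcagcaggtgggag

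In Myl9 the stretch CCTAATAAGG, 161 bases before the start, was a full CArG box, and CCTTGTAAGG, 99 bases before it, had 1 other letter. The Acta2 matches, CCCTATATGG and CCTTGTTTGG, began 84 and 34 bases before the start and each had 1 other letter. All distances are counted from the annotated RefSeq start, which was not checked against the site where transcription begins. A full box was in 1.63% of the 32851 promoters of the table and a box with at most 1 other letter in 9.98%, against 1 and 2 of the 6 promoters here. A match describes the letters only.

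Values are the authors' MAS5 signal intensities in linear units. Signals under an array's median were set to that median, which was 34.2 units for heterozygous and 32.5 units for null cells, and a gene is represented by its brightest probe set. Ratios are log2 of null over heterozygous. The spread given beside a ratio is the robust SD of the ratios among about 595 genes of similar signal, which holds real differences as well as noise. Cuzd1 was near the floor on both arrays, at 32.4 and 33.98 units, and so does not check the labels. The 3′ to 5′ signal ratio of the actin controls was 1.27 and 1.24. The cells, labelled only as mammary epithelial, carried luminal and milk transcripts, with Wap, the whey acidic protein, at 15403 and 13117 units. They also carried non-epithelial markers, given further on. In such bulk samples, fewer cells of a type and less RNA per cell cannot be told apart.

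All 10 genes were above the floor on both arrays, and none was 2-fold apart. Over the whole array 2.15% of the 11893 measured genes were at least 2-fold apart. At 1.5-fold the count was also 0 of 10, against 10.8% of measured genes. The ratios of the 10 genes had a median of -0.02, with 4 above 0 and 6 below, where 54% of measured genes were above 0, and next to a median of 0.03 over all measured genes (quartiles -0.18 and 0.23). Actg2 and Trp63 were the lowest and highest of the 10, and the 8 others lay between -0.11 and 0.13. These 8, grouped by these same values, were each within 1 robust SD of the median of genes of similar signal. That range holds most genes by construction.

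**Figure D1:**
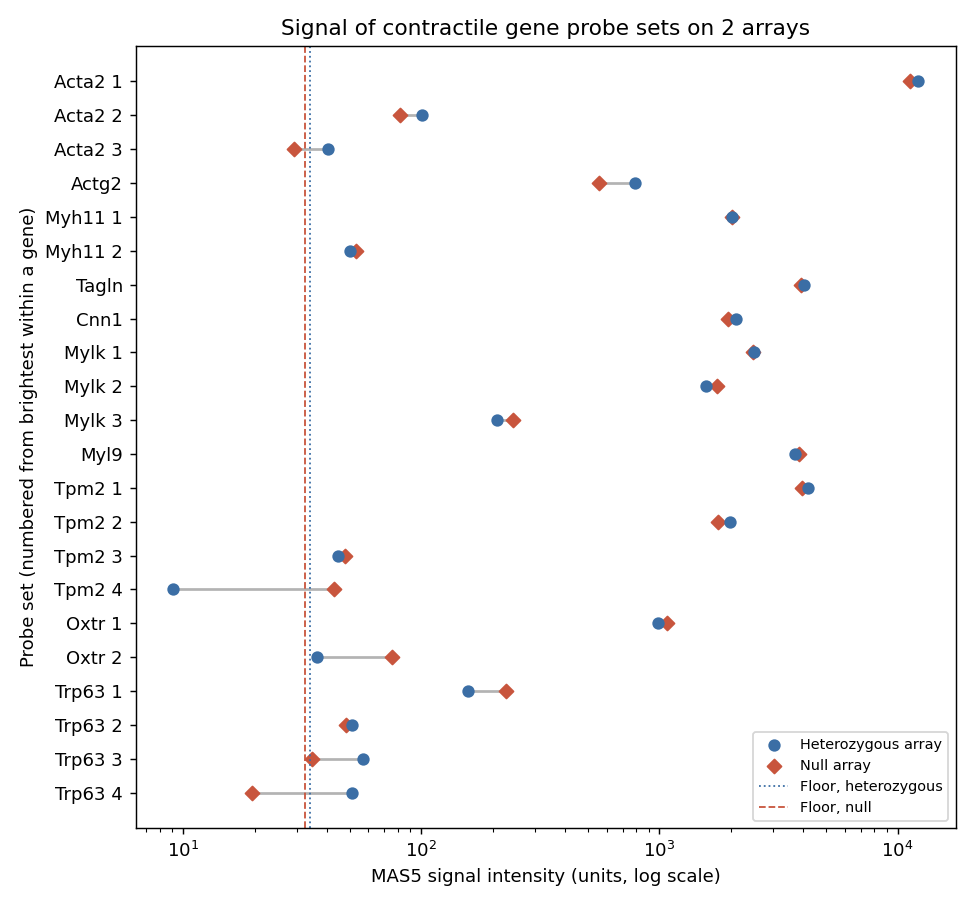
MAS5 signal (log axis, units) of the 22 probe sets of the 10 genes on the heterozygous array (circles) and the null array (diamonds), with vertical lines at the 2 floors. The pairs of bright probe sets nearly coincide, Actg2 read 786 and 558 units, and the wide gaps belong to dim probe sets.

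Smooth muscle actins form the thin filament. Acta2, alpha smooth muscle actin and the usual marker of the myoepithelial cell, read 12211 units in heterozygous and 11312 units in null cells, a ratio of -0.11 with a robust SD of 0.19 at that signal. The null pool was the lower by an amount inside that spread. This probe set carries the platform's suffix for probes that fit more than 1 gene, so other actin transcripts may contribute to it. The other Acta2 probe sets read 101 and 81.7 units (ratio -0.31) and 40.5 and 29.2 units (ratio -0.32 after flooring), so all of them were lower in the null pool as deposited. After rescaling to the hybridization controls, described at the end, the brightest was at 0.12 and the dimmer ones at -0.08 and -0.09.

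Actg2, gamma smooth muscle actin, was the lowest of the 10. Its single probe set read 786 units in heterozygous and 558 units in null cells, 1.41-fold lower in the null pool. The ratio of -0.49 compares with a median of -0.01 and a robust SD of 0.25 among genes of similar signal. It remained below 0 under quantile normalization (-0.50) and after rescaling to the hybridization controls (-0.27). No second probe set was there to set beside it.

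Myosin and its regulators differed little between the pools. Myh11, the smooth muscle myosin heavy chain, read 2014 and 2022 units, a ratio of 0.01, and 50.2 and 53.3 units (0.09) at its dim probe set. Myl9, the regulatory light chain whose phosphorylation starts contraction, read 3702 and 3850.2 units, a ratio of 0.06. Mylk, the kinase that phosphorylates it, had 3 probe sets. The brightest read 2489 and 2466 units (-0.01), the next 1572 and 1753 units (0.16) and the dimmest 208 and 242 units (0.22). The 3 Mylk ratios thus lay on both sides of 0 and each within 1 robust SD of genes of similar signal.

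Actin-binding proteins of the filament were slightly lower in the null pool as deposited. Tagln, transgelin, an actin-bundling protein of smooth muscle, read 4029 and 3937 units, a ratio of -0.03. Cnn1, calponin, an inhibitor of the myosin ATPase, read 2097 and 1940.3 units, a ratio of -0.11. Tpm2, beta tropomyosin, which lies along the actin filament, read 4204 and 3984 units (-0.08) at its brightest probe set and 1985 and 1756 units (-0.18) at the next. These differences were smaller than the spread among genes of similar signal, whose robust SD was 0.19 for the brightest probe sets and 0.22 for the second of Tpm2. The dim Tpm2 probe sets were above 0. One read 44.6 and 47.9 units (0.10). The other read 9.05 and 43.1 units, below the floor in heterozygous cells, and had a ratio of 0.33 after flooring but 2.25 without a floor. It carries a platform suffix for probes that may also fit other sequences.

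Oxtr, the oxytocin receptor, was the highest of the contractile genes after Trp63, with probe sets that differed in size. The brightest read 988 units in heterozygous and 1080.45 units in null cells, 1.09-fold higher, a ratio of 0.13 with a robust SD of 0.22. The dim one read 36.3 and 75.1 units, just above the floor in heterozygous cells, 2.07-fold higher in null cells. Its ratio of 1.05 compares with a robust SD of 0.52 at that signal. After flooring it was the 1 probe set of the 22 at least 2-fold apart, against 2.03% of all 21054 measured probe sets with 1 symbol. Without a floor there were 3, the others being the dimmest of Tpm2 and of Trp63, where 3559 of 18193 genes were that far apart. The direction was the same at both Oxtr probe sets, but the mean of the pair, 0.59, is mostly that of the dim one.

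Trp63 had no settled direction. Its brightest probe set read 157 units in heterozygous and 227 units in null cells, 1.44-fold higher, a ratio of 0.53 with a robust SD of 0.30. The 3 others were below 0 as deposited. The second read 51.3 and 48.3 units (-0.09) and the third 56.9 and 34.9 units (-0.71, robust SD 0.57). The last read 51.3 and 19.6 units, below the floor in null cells, at least 1.58-fold lower (-0.66, and -1.39 without a floor). The mean of the 4 ratios was -0.23, against 0.53 at the brightest, so the sign rests on the probe set chosen. The p63 isoforms that each probe set reads were not analysed here.

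**Figure D2:**
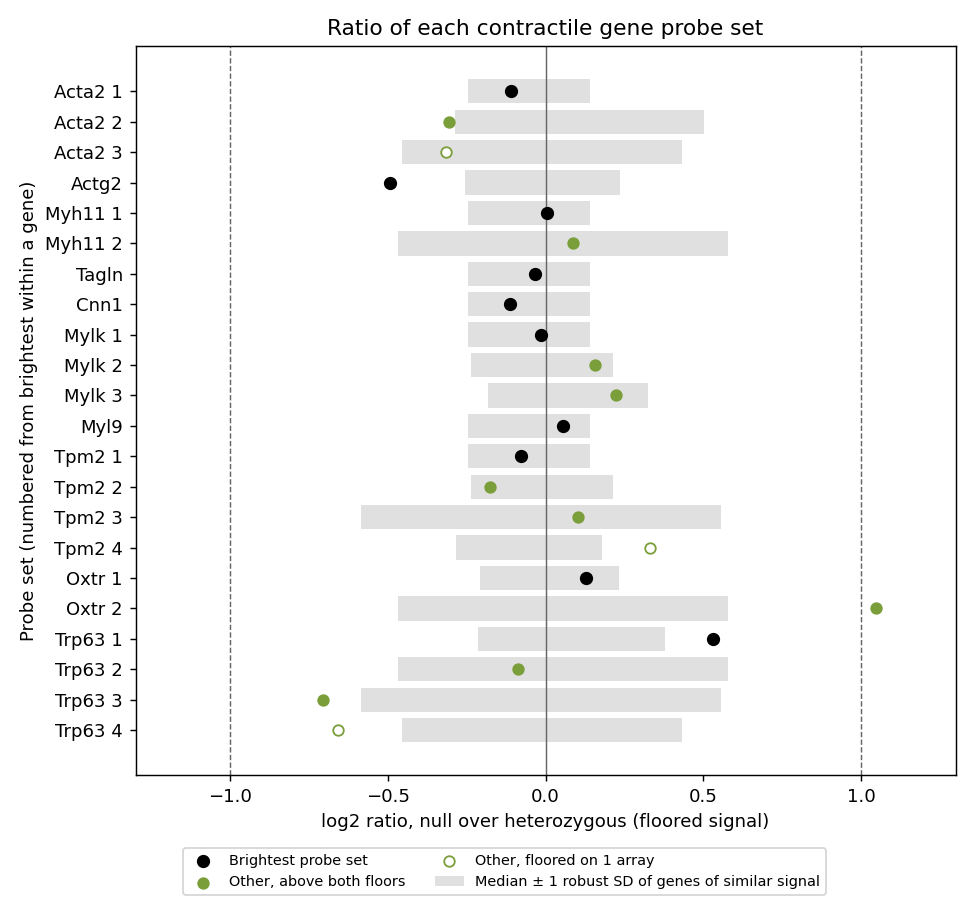
Log2 ratio of null over heterozygous signal for each of the 22 probe sets. Black points are the brightest probe set of a gene, green points the others (open where 1 array was floored), and grey bars the median ± 1 robust SD of genes of similar signal. Dashed lines mark 2-fold. Most black points lie inside the grey bars, Actg2 (-0.49) and Trp63 (0.53) lie outside, and the second Oxtr probe set (1.05) passes the dashed line.

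Across the 22 probe sets, 19 were above both floors and 3 on 1 array only. The 12 that were not the brightest of their gene ran from -0.71 to 1.05, wider than the -0.49 to 0.53 of the brightest. For comparison, the brightest and next brightest probe set of a gene were set against each other over 4722 genes. The robust SD of the difference between their ratios, scaled to a single probe set, was 0.21. That value describes disagreement within a gene, not the spread of ratios among genes.

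Partners of the contractile machinery were described from lists. Of the 18 listed genes of the thin filament and cytoskeleton, all were measured and 0 were 2-fold apart, with a median of -0.05, 6 above 0 and 12 below. The brightest were Actg1, cytoplasmic gamma actin (14100.1 and 13417 units, -0.07), and Actb, beta actin (12986 and 12499 units, -0.06, and -0.58 at its other probe set). The extremes, named after their values were seen, were 2 actin-binding proteins. Cald1, caldesmon, which restrains the actin-myosin interaction, read 2381 and 1457 units, a ratio of -0.71, with 3 other probe sets between -0.84 and 0.09. Cnn2, a calponin of non-muscle cells as well, read 388 and 694 units, a ratio of 0.84.

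Genes that set the phosphorylation of the light chain had a median of 0.11 over the 12 measured of 16 listed, with 8 above 0. None was 2-fold apart. Myl12a, a non-muscle regulatory light chain, read 3228 and 3467 units (0.10, and 0.00 at its other probe set), and Ppp1cb, the catalytic subunit of myosin phosphatase, read 3135 and 3373 units (0.11, and -0.13 to 0.55 at 3 other probe sets). The oxytocin receptor signalling list ran from the G proteins to calcium release, and also held genes of calcium entry and reuptake. It had a median of -0.04 over 13 measured of 15 listed, with 6 above 0 and 0 at least 2-fold apart. There Atp2a2, the calcium pump of the endoplasmic reticulum, read 2656 and 2308 units (-0.20, and -0.56 to -0.34 at 4 other probe sets). Orai1, a calcium channel of the plasma membrane, read 627 and 533 units (-0.23, and -0.65 at its other probe set).

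A list on SRF and myocardin transcription held SRF, its cofactors and a few associated genes, among them the integrin Itga1 and the histone deacetylase Hdac5. It had a median of -0.07 over 7 measured of 8 listed, with 3 above 0 and 0 at least 2-fold apart. Srf itself read 605 and 573 units (-0.08, and 0.16 at its other probe set). Mrtfb, an actin-regulated cofactor of SRF, read 401 and 520.2 units (0.37). Myocd, myocardin, the cofactor of smooth muscle, was below the floor on both arrays at 16.9 and 12.1 units. The p63 family and target list had a median of 0.01 over 9 measured of 12 listed, with 5 above 0. None was 2-fold apart at its brightest probe set. Its brightest were Perp, a desmosomal membrane protein (953 and 936 units, -0.03), and Sfn, 14-3-3 sigma (568 and 698 units, 0.30). Others were named after their values were seen. Cdkn1a was lowest (-0.72, and -0.57 at its other probe set). Dst was at 0.01 but at -1.14 to -0.69 at 3 other probe sets, and Jag2 at 0.03 but at 0.56 at its other probe set.

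Other basal-cell genes had a lower median ratio than the contractile ones, though the 2 groups overlapped. The 14 listed genes of the basal epithelium that are not contractile had a median of -0.40, with 11 below 0 and 2 at least 2-fold lower, where 1.03% of measured genes were that much lower. The 2 were the keratins Krt15 (343 and 106 units, 3.22-fold) and Krt17 (368 and 126 units, 2.93-fold). Some further members were named after their values were seen. Krt14 read 1692 and 1050.3 units (-0.69) and Krt5 read 679 and 491 units (-0.47), the keratin pair of the basal layer. Cdh3, P-cadherin, had a ratio of -0.76. Jag1, a Notch ligand, had one of -0.77, but -0.39 and -0.24 at its 2 other probe sets. Nrg1 had a ratio of -0.65, with null cells below the floor, and Snai2 one of -0.34, but 0.06 at its other probe set. Cav1 (-0.10) and Col17a1 (-0.20) were nearer 0. Itga6, the integrin of the basal surface, read 2654 and 2547 units (-0.06), like the contractile genes. The 3 above 0 were Itgb4 (0.11), Sparc (0.26) and Vim (0.23), of which Sparc and Vim are also expressed by fibroblasts. Of the contractile genes, Actg2 (-0.49) was as low as Krt5. The difference between the basal list and the contractile genes was not tested, since each genotype has 1 array. Both lists were chosen with earlier results of these data known, so the contrast is a description only.

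**Figure D3:**
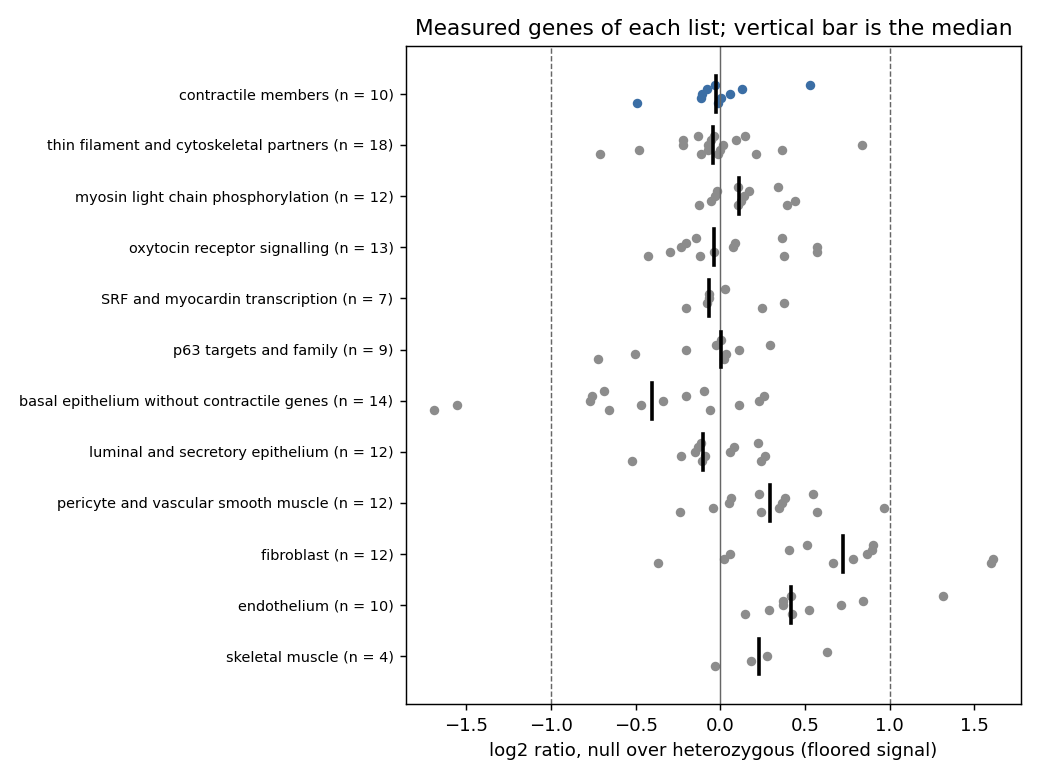
Log2 ratio of null over heterozygous signal for each measured gene of the contractile group (blue) and of 11 other gene lists (grey), with a bar at each median. Dashed lines mark 2-fold. The contractile genes cluster at their median of -0.02, the basal list reaches down to -1.69, and the fibroblast list reaches up to 1.61.

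Markers of other cells that share contractile genes were higher in the null pool. All 12 pericyte and vascular smooth muscle genes were measured, with none below the floor on both arrays, a median of 0.29 and 10 above 0. Their summed signal was 2348 units in heterozygous and 3228 units in null cells, most of it on each array from the single gene Rgs5. Rgs5, a pericyte marker and regulator of G protein signalling, read 1284 and 1912 units (0.57, and 0.39 to 0.81 at 3 other probe sets), and Notch3, a receptor of mural cells, read 267 and 348 units (0.38, and 0.16 at its other probe set). None of the 12 was 2-fold apart. Their part in the level of the contractile genes was not tested.

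Fibroblasts can also express Acta2 and Tagln. Their genes had a median of 0.72 over all 12 listed, with 11 above 0 and 2 at least 2-fold higher, where 1.12% of measured genes were that much higher. The first was Pdgfra, a growth factor receptor, at 82.2 and 250.5 units (1.61), but its other probe set had a ratio of 0.04. The second was Col1a2, a collagen chain, at 553 and 1673 units (1.60, and 1.80 at its other probe set). The summed signal of the list was 11292 and 14764 units. Endothelial genes had a median of 0.42 over all 10 listed, all above 0, with a summed signal of 2130 and 3005 units and Vwf, von Willebrand factor, 2.49-fold higher. No fibroblast or endothelial marker was below the floor on both arrays. Of 10 skeletal muscle genes, 6 were below the floor on both arrays, among them the fast myosins Myh1, Myh2 and Myh4, and the 4 measured had a median of 0.23 and a summed signal of 330.5 and 418 units. The brightest were Mb, myoglobin (188 and 228 units, 0.27), and Acta1, skeletal actin (91.6 and 104 units, 0.18). Luminal and secretory genes had a median of -0.10 over 12, with 5 above 0 and a summed signal of 100479 and 96769 units. Its brightest besides Wap (-0.23) was Csn3, kappa-casein, at 17785 and 16461 units (-0.11, and -1.11 at its other probe set). The part of these markers in the contractile values was not tested.

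The sign of the small negative contractile ratios depended on the scaling of the arrays. The 9 hybridization control probe sets, spiked in at the same amount by the usual protocol, had a median ratio of -0.23, and an older set of 9 had -0.18. Rescaling to the first set moved the median of all measured genes from 0.03 to 0.26 and that of the 10 contractile genes from -0.02 to 0.20. The same shift is added to every gene above both floors, so small negative ratios turn positive by construction. That was so for 5 of the 10 genes, namely Acta2, Tagln, Cnn1, Mylk and Tpm2, while the other 5 kept their sign. In all, 9 of the 10 were then above 0, with Actg2 at -0.27 the exception. Among all genes at least 2-fold apart, 349 were then higher and 59 lower, against 133 and 123 as deposited. With quantile normalization 6 of the 10 were above 0 and their median was 0.02. The count at least 2-fold apart was 0 of 10 in each case. The contractile median lay 0.05 below that of all measured genes as deposited, and also when rescaled, which follows from the common shift. Genes of similar signal to Acta2, Myh11, Tagln, Cnn1, Mylk, Myl9 and Tpm2 themselves had a median of -0.05 as deposited. Rescaling also moved the lists. The medians became 0.18 for the thin filament partners, 0.34 for light chain phosphorylation, 0.19 for oxytocin receptor signalling, 0.16 for the SRF and myocardin list, 0.23 for the p63 list and 0.13 for the luminal list, all above 0. The basal list stayed below 0 at -0.18, with 6 of its 14 genes above 0, while the pericyte, endothelial and fibroblast lists stood at 0.52, 0.65 and 0.95.

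**Figure D4:**
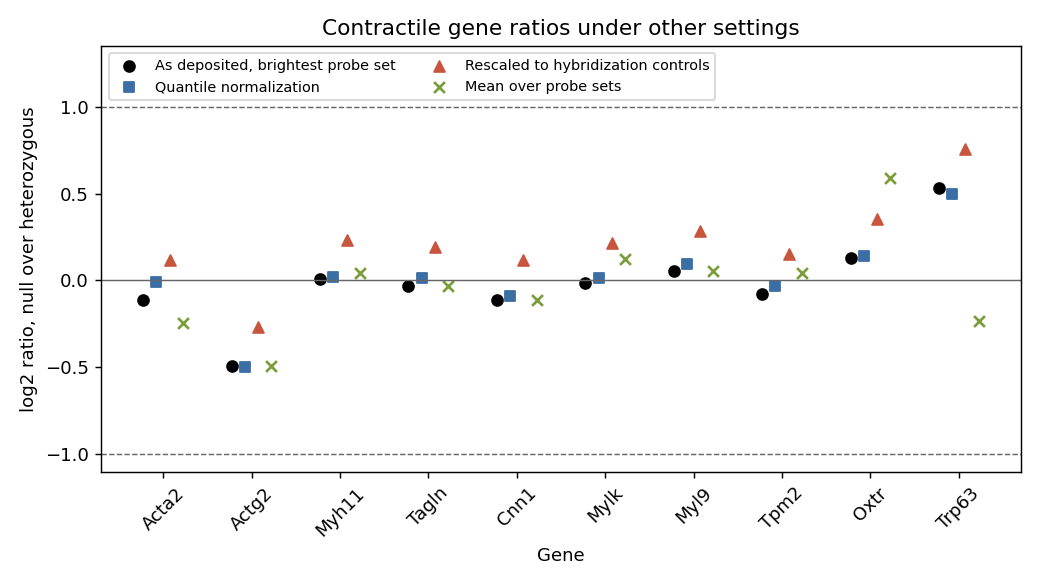
Log2 ratio of each contractile gene as deposited (circles), after quantile normalization (squares), after rescaling to the hybridization controls (triangles) and as the mean over the probe sets of a gene (crosses). Dashed lines mark 2-fold. No gene passes them, Actg2 is below 0 at each setting shown, and Trp63 changes sign with the mean over probe sets (-0.23).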

How the data were processed

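Gene expression was measured on 2 arrays, 1 per genotype. The authors deposited linear MAS5 signal intensity for 45101 probe sets, for which the submitters' processing notes name Affymetrix Expression Console, version 1. No genome build was used. The mean without the top and bottom 2% of values was 150.001 on both arrays, so each carries 1 scaling factor. The number of arrays limits the precision, and ratios spread more widely at low signal.

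Probe sets were named through the platform's annotation, in which 34945 non-control probe sets had 1 symbol and 932 probe sets had several. Symbols were updated by Entrez ID in the RefSeq table. Probe sets with several symbols named no gene. Some with 1 symbol, such as the brightest of Actg1 and of Krt14, carry platform suffixes for probes that may fit other sequences. Signals were floored at each array's median over 45037 non-control probe sets. A gene was measured if above the floor on at least 1 array. Robust SDs came from 20 bins of signal. No test was run. Every member probe set is reported. From each companion list the genes at least 2-fold apart are named, up to 4, or else the 2 brightest. Members and lists were chosen with earlier results of these data known. Scripts (Python 3.11.15, pandas 2.3.3, numpy 2.4.6) were tested on simulated data. Alternatives covered the floor, scaling, probe set choice, the filter and the fold. Des is in both the thin filament and the pericyte list, and Itgb4 and Col17a1 are in both the p63 and the basal list.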

Additional observations from a re-analysis of the deposited data

How the results depend on the processing

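The count of contractile genes apart by the set size was 0 of 10 under all 8 alternatives run, the 1.5-fold size included. That smaller size was applied only to the values as deposited at the brightest probe sets, not combined with the other alternatives. Trp63, at 0.76 when rescaled, and Oxtr, at 0.59 with the mean over probe sets, were beyond 1.5-fold. Their median ratio ran from -0.02 with each other floor, and with only genes above both floors, to 0.01 with the mean over probe sets and 0.02 with quantile normalization. It moved to 0.20 when the arrays were rescaled to the hybridization controls, by construction, since 1 factor multiplies every null signal. The count of all genes at least 2-fold apart, 256 as reported, was 3559 with no floor, 1483 with the floor at the 25th percentile, 63 with it at the 75th, 408 when rescaled and 1279 at 1.5-fold. The other floors, and the filter on both arrays, left every ratio of a single contractile gene unchanged. Each brightest probe set lay above every floor tried, so these settings could not move it. Nor could the mean over probe sets for the 4 genes with 1 probe set. Of 70 ratios of single contractile genes under alternatives, these included, 58 moved by less than the robust SD of 0.21 per probe set. The other 12 were the 10 rescaled ones and the means over probe sets of Oxtr (0.59) and Trp63 (-0.23). Of 77 list medians, 11 moved by more than that, each of them when rescaled. No paired analysis was possible because each genotype has 1 array, and no array could be left out. Dim probe sets, near the floor of about 34.2 units, limit what can be said of Trp63 and of the second Oxtr probe set.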
